A study of Rattus norvegicus with 16 samples.

Results

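The comparison described here sets rat hippocampal cultures that overexpress PRR7 against cultures that carry a nontargeting short hairpin RNA. Both are labelled groups of the study, and together they make up 8 of its 16 samples, 4 in each group. The overexpressing cultures received the full-length PRR7 protein from the lentiviral vector FUGW, and the nontargeting cultures received a hairpin with no intended target from a pTRIP vector, so the groups differ in vector as well as in insert. No culture with an empty FUGW vector is among the groups used here. By the tissue and stage labels and the culture protocol, all were primary hippocampal cultures from Sprague-Dawley rat embryos at embryonic day 18 to 19, of either sex. The description label of every sample names another source instead, the dentate gyrus of ovariectomised adult rats, and was not followed. The series' design names the samples of a group as biological replicates. The other 8 samples, used beside the comparison, are 4 cultures with a hairpin against Prr7 and 4 cultures with no virus. RNA was hybridised to 2-colour Agilent rat whole-genome arrays, and each array carried a pair of samples of the same group, 1 labelled with Cy3 and 1 with Cy5.

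PRR7 is a small, proline-rich transmembrane protein of the postsynaptic membrane that binds the scaffold PSD-95 and the NMDA type of glutamate receptor. It can also move to the nucleus, where it has been described to protect the transcription factor c-Jun from ubiquitin ligases and so to raise its activity. c-Jun pairs with Fos proteins to form AP-1, which, with CREB and SRF, drives the genes that neurons switch on within minutes to hours of synaptic activity. That activity-regulated programme includes transcription factors such as Fos, Nr4a1 and Npas4, feedback inhibitors such as the dual-specificity phosphatases, and synaptic effectors such as Arc and Bdnf.

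The layout of the arrays bears on every value. The overexpressing cultures and the cultures without virus were hybridised on slide 2, and the nontargeting and knockdown cultures on slide 1, so that slide and group cannot be told apart in this comparison. For that reason the values of the other group on each slide stand beside the main ones for some lists and genes. Overexpression against no virus lies within slide 2, and knockdown against nontargeting within slide 1. Probes well above background made up 54.3% to 69.5% of the overexpression samples and 50.2% to 70.3% of the nontargeting samples, and no spot was saturated. Prr7 itself could not be read, because 0 probes carry that name, so the labels were not checked on the overexpressed gene. The 10 measured spike-in controls, RNA added by the labelling kit, differed between overexpression and nontargeting by a median log2 difference of -0.07, with a range of -0.28 to 0.00. All were dim, with mean log2 intensities of 6.89 to 8.58 in overexpression and 6.90 to 8.85 in nontargeting samples. The brightest of them had the difference of -0.28. They cannot show how the slides compare at the higher levels of many genes below. Genes of the dimmest quartile had a mean level of 7.34, and whether the controls stood above background was not tested.

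Against nontargeting cultures, overexpression cultures had 5218 of 22909 genes past an adjusted p of 0.05, which is 22.8% of all genes tested. Of these, 2394 were higher (10.5% of all genes) and 2824 were lower (12.3%). A difference of at least 2-fold was found for 600 of the higher genes (2.62% of all genes) and 333 of the lower genes (1.45%), or 933 (4.07%) in all. Levels are given throughout as normalised log2 intensity, differences as log2 overexpression minus nontargeting with the standard error of the fit, and p-values as adjusted by Benjamini-Hochberg over all genes from limma. The median replicate SD was 0.124 in overexpression and 0.156 in nontargeting cultures. The 4 values of one group lay wholly on one side of the other's in 8493 genes, or 37.1%, and in 5026 genes, or 21.9%, they did so with the adjusted p also passing. The 15 largest rises and 15 largest falls named below were chosen among these 5026 genes. For them, lack of overlap follows from the choice and is no result. Calls were fewest in the dimmest quartile of genes, where 3.49% were higher and 3.51% lower, and most frequent in the third quartile by brightness, at 14.6% and 17.4%, beside 12.9% and 16.6% in the brightest.

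Within slide 2, overexpression against cultures without virus had 1 gene past the threshold (0.00437%) and 887 genes at an unadjusted p below 0.05. That gene was Eftud2, a GTPase of the spliceosome, and it is named here because it is the only one. Eftud2 read 12.86 and 12.92 in the overexpression samples with a value, which share 1 array, against a mean of 11.20 in cultures without virus (n = 3), a difference of 1.71 ± 0.17 (adjusted p = 0.00676). Its overexpression mean of 12.89 (n = 2) stood beside a nontargeting mean of 12.84 (n = 4), a difference of 0.05. Within slide 1, knockdown against nontargeting had 4914 genes past the threshold (21.5%), 2394 higher (10.5%) and 2520 lower (11%). The SD of the log2 differences over all genes was 0.458 for overexpression minus nontargeting, 0.189 for overexpression minus no virus and 0.454 for knockdown minus nontargeting. These comparisons share samples, so no agreement between them is read. Each comparison's own value is given for some of the genes below.

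**Figure D1:**
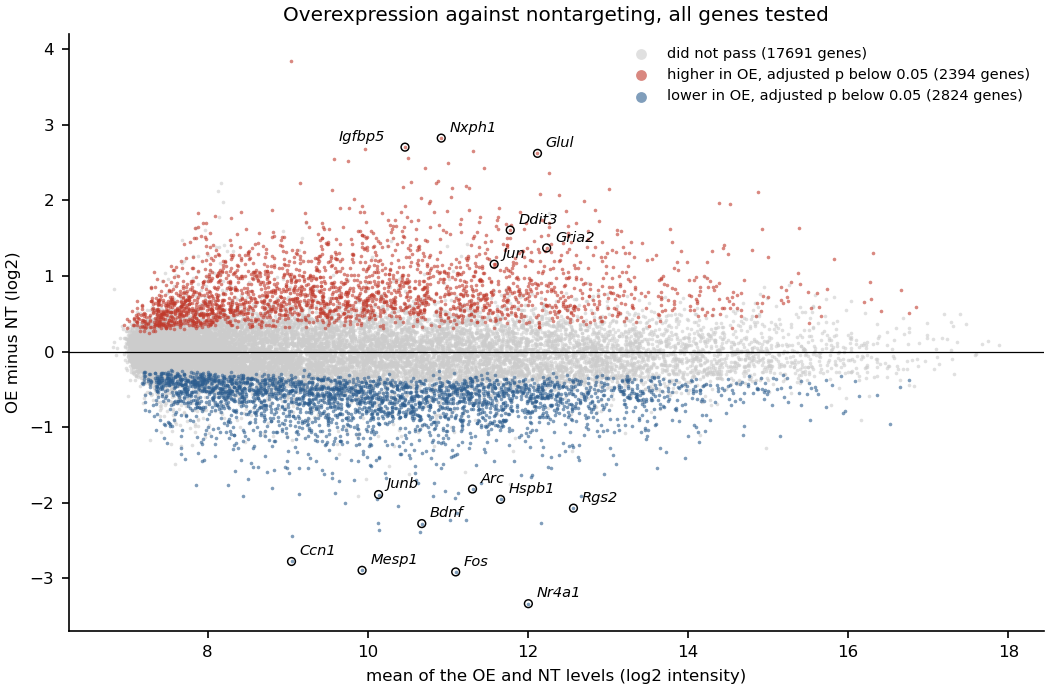
Log2 difference of overexpression minus nontargeting (vertical axis) against the mean log2 intensity of the gene (horizontal axis) for the 22909 genes tested, with genes past the adjusted threshold coloured and leading genes labelled. The called genes number 2394 above 0 and 2824 below it, and Nr4a1 at -3.34 and Nxph1 at 2.83 lie far from the bulk of genes.

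The activity-regulated genes were the group with the most falls. Of 42 genes in the list, 39 were measured, and 25 of them fell and 2 rose in overexpression cultures. That is 64.1% lower, against 12.3% of all genes, with a median difference of -0.99 against -0.03 over all genes. This list, like the others below, was chosen with earlier results of these data known. The shares of the lists are therefore descriptions and no tests. The nuclear receptor Nr4a1, the AP-1 factor Fos, the CREB-pathway kinase Sik1 and the growth factor Bdnf were among the 15 largest falls of all named genes. In the knockdown cultures, compared with nontargeting on the same slide, 26 of the 39 were lower and 2 higher, with a median of -0.87. Of all genes, 11% were lower and 10.5% higher in that comparison. Between overexpression and no virus the median of the list was -0.20 and no member passed.

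Several of these genes have a promoter in the RefSeq table, and 4 are printed because they hold the core of the cyclic-AMP response element (CRE) that CREB binds, in genes that fell. Of these, 1, that of Dusp1, holds the full element. Each sequence runs 5′ to 3′ on the strand of the gene, from 250 bases before to 50 bases after its start, in the build GRCr8, and capitals mark matches to the CRE core TGACG, read as CGTCA on the other strand, or to the full CRE, TGACGTCA, which holds a core on each strand. Nr4a1 lies at chr7:134259888-134260187 on the plus strand, Sik1 at chr20:9958597-9958896 on the minus strand, Egr4 at chr4:119607768-119608067 on the minus strand and Dusp1 at chr10:17184603-17184902 on the plus strand.
Nr4a1: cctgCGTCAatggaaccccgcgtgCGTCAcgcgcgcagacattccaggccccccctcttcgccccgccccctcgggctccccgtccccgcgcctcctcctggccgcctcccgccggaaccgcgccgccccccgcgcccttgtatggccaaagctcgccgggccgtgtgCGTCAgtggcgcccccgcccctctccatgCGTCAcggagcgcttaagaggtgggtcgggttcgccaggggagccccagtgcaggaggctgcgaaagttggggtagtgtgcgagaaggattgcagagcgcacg
Sik1: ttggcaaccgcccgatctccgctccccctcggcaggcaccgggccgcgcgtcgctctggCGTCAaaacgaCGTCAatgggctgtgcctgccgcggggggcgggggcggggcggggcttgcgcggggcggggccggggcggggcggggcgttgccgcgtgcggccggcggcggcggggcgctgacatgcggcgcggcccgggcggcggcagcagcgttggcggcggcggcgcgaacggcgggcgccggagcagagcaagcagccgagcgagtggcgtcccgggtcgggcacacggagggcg
Egr4: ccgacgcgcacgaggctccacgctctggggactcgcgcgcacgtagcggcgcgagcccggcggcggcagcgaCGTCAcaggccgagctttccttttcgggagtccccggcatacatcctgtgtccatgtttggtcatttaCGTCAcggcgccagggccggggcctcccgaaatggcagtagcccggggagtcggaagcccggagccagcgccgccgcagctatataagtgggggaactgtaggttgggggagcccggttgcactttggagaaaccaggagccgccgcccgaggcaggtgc
Dusp1: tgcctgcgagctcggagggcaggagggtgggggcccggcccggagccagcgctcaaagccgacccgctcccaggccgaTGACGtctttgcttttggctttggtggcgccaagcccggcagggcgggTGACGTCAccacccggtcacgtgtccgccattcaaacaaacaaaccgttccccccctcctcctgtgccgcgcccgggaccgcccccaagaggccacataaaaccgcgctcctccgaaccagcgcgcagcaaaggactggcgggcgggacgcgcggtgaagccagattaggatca

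The Nr4a1 promoter holds 4 cores, those of Sik1 and Egr4 hold 2 each, and that of Dusp1 holds 1 full CRE and 3 cores, counting both arms of the CRE. Of the 25 activity-regulated genes that fell, 20 were matched to a promoter, and 14 of these (70%) held the core on either strand. Fos, Arc and Csrnp1 were among those without a match. A gene with several promoters was counted if any of them held the motif. The core is common: it was found in 30.8% of the 10120 tested genes with a promoter. It was in 23.0% of all 27457 genes with a promoter, and in 21.2% of all 33469 promoters counted singly. Among all genes that fell it was in 33.6% of 1297, and among all genes that rose in 27.8% of 1136. The full CRE was in 4 of the 20 (20%), against 3.09% of the tested genes and 1.83% of all promoters. The AP-1 site TGANTCA was in 1 of the 20 (5%), against 5.53% of the tested genes and 7.33% of all promoters. The CArG box, the element of SRF, was in 0 of the 20, against 1.36% of the tested genes and 1.64% of all promoters. A match in these 300 bases is a description of the letters and shows no binding, and elements outside the window were not searched. Members of the list that did not fall were not counted, so whether the core goes with the fall was not tested.

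Nr4a1, an orphan nuclear receptor induced by calcium influx, had the largest fall of the named genes. It read 10.26, 10.52, 9.93 and 10.64 in overexpression cultures, against 13.72, 13.91, 13.31 and 13.77 in nontargeting cultures. The groups were far apart, with the highest overexpression sample well under the lowest nontargeting sample. The difference was -3.34 ± 0.23, or 10.1-fold lower (adjusted p = 3.73e-07), from a probe at chromosome 7, positions 140020442 to 140020501 of rn4. On the same slides, Nr4a1 gave -0.41 for overexpression minus no virus (adjusted p = 0.9999) and -2.53 for knockdown minus nontargeting. Its relatives Nr4a3 and Nr4a2 fell by 1.26 ± 0.11 and by 1.87 ± 0.23, Nr4a2 with values in 2 nontargeting samples, and the other Nr4a3 probes fell by 2.44 ± 0.33 and 1.93 ± 0.38.

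Fos, the immediate-early partner of c-Jun, read 9.45, 9.66, 9.55 and 9.90 in overexpression cultures, against 12.74, 12.76, 12.28 and 12.45 in nontargeting cultures. No overexpression sample came near the nontargeting range. The difference was -2.92 ± 0.30, or 7.56-fold lower (adjusted p = 1.06e-05), and knockdown minus nontargeting gave -3.53, while overexpression minus no virus gave -0.07. The probe lies at chromosome 6, positions 109561099 to 109561158 of rn4.

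Bdnf encodes the neurotrophin that activity releases from hippocampal neurons. Its levels were 9.55, 9.57, 9.53 and 9.49 in overexpression cultures, against 11.80, 11.96, 11.62 and 11.88 in nontargeting cultures. Replicates within a group lay close together and the groups did not overlap. The difference was -2.28 ± 0.14, or 4.85-fold lower (adjusted p = 1.5e-07), with -0.37 for overexpression minus no virus and -2.11 for knockdown minus nontargeting. A second Bdnf probe fell by 1.97 ± 0.12. The brighter one lies at chromosome 3, positions 976345 to 976404 of rn4.

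Arc, whose product drives endocytosis of AMPA receptors, had the smallest p of the list. It read 10.49, 10.57, 10.26 and 10.28 in overexpression cultures, against 12.25, 12.30, 12.14 and 12.19 in nontargeting cultures, which do not overlap. The difference was -1.82 ± 0.10 (adjusted p = 9.79e-08). Here the other groups lay between: Arc was 11.26 to 11.33 in knockdown cultures and 10.76 to 10.94 in cultures without virus. Sik1, a kinase that restrains CREB coactivators, fell by 2.39 ± 0.23, the zinc-finger factor Egr4 by 2.23 ± 0.22, and Rgs2, which speeds the turn-off of G-protein signalling, by 2.07 ± 0.15. Csrnp1, an immediate-early nuclear protein, fell by 2.00 ± 0.12, but its other probe differed by -0.09 (adjusted p = 0.715). That other probe was dim, with means of 7.36 in overexpression and 7.45 in nontargeting cultures. It was well above background in 3 overexpression and 2 nontargeting samples.

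Other members of the list also fell. Inhba, the subunit of activin A, read 10.26, 10.64, 9.92 and 9.65 in overexpression cultures, against 12.43, 12.25, 11.41 and 12.14 in nontargeting cultures, a difference of -1.94 ± 0.36. The neuropeptide precursor Vgf fell by 1.12 ± 0.11, the cyclooxygenase gene Ptgs2 by 1.01 ± 0.11 and the transcription factor Klf4 by 1.45 ± 0.17. Npas4, a neuron-specific factor induced by depolarisation, was not well above background on any overexpression array, with a mean of 7.01 against 7.70 in nontargeting cultures, so its fall is at least 1.61-fold (adjusted p = 0.000266). Gadd45b fell by 1.04 ± 0.27, although its highest overexpression sample, 9.51, lay above its lowest nontargeting sample, 9.46.

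The list was not uniform. Egr1, an early zinc-finger factor of the same programme, was higher: 12.09, 12.36, 12.65 and 12.23 in overexpression cultures, against 11.30, 11.28, 11.20 and 11.68 in nontargeting cultures, a difference of 0.97 ± 0.26 (adjusted p = 0.0136). Without the overexpression array of replicates 3 and 4 that call was lost (adjusted p = 0.0523). Homer1, a scaffold of metabotropic glutamate receptors, was 1.37 ± 0.33 higher on its brightest probe, while another probe of the gene was -1.20 and also passed (adjusted p = 0.00241), so the gene has no single direction here. The rise was also lost without the overexpression array of replicates 3 and 4 (adjusted p = 0.0724). Egr2 (-0.42), Egr3 (-0.04), Btg2 (-0.35), Plk2 (-0.48) and Per1 (0.04) did not pass. Averaged over the list, the per-sample deviation from each gene's mean was -0.32 to -0.27 in overexpression, -0.35 to -0.20 in knockdown, -0.20 to 0.00 without virus and 0.56 to 0.74 in nontargeting samples.

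**Figure D2:**
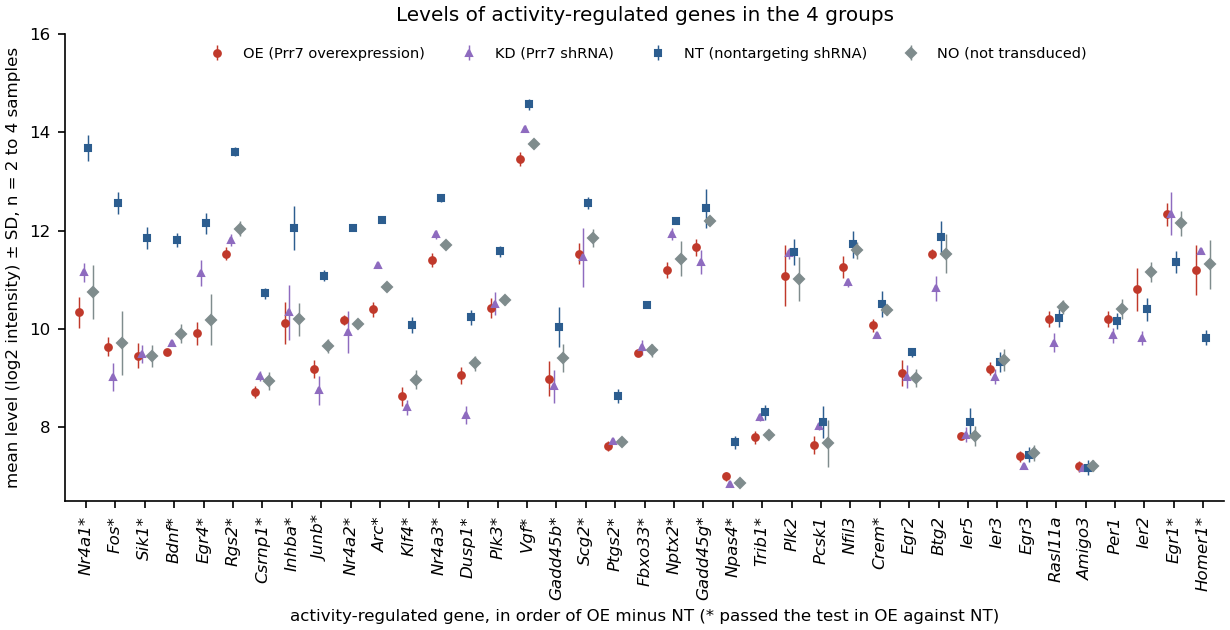
Mean log2 intensity (vertical axis) of the 39 measured activity-regulated genes (horizontal axis, in order of overexpression minus nontargeting) in overexpression, knockdown, nontargeting and no-virus cultures, with bars of 1 SD over 2 to 4 samples. In 25 genes, among them Nr4a1, Fos and Bdnf, the overexpression mean lies below the nontargeting mean and passed the test, and Egr1 and Homer1 lie above it.

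The dual-specificity phosphatases switch MAP kinases off and are themselves induced by MAP kinase activity. Of 10 measured, 5 fell and 1 rose, or 50% lower against 12.3% of all genes, with a median of -0.54. Among the 5, Dusp1 is also counted with the activity-regulated genes that fell. Dusp5, a nuclear ERK phosphatase, read 9.86, 10.13, 9.87 and 10.01 in overexpression cultures, against 11.57, 11.61, 11.80 and 11.83 in nontargeting cultures, with no overlap and a difference of -1.74 ± 0.14 (adjusted p = 1.25e-06). Dusp6, the cytoplasmic ERK phosphatase, fell by 1.17 ± 0.15, Dusp1 by 1.18 ± 0.18 and Dusp4 by 0.49 ± 0.10. In knockdown minus nontargeting, Dusp5 was at -0.68, Dusp6 at -0.18 without passing (adjusted p = 0.44) and Dusp1 at -1.99. Dusp2 fell by 1.57 ± 0.38, with nontargeting values spread over 10.93, 9.97, 8.91 and 8.66, and its call was lost without the overexpression array of replicates 1 and 2 (adjusted p = 0.0662). Dusp16, which acts on JNK and p38, was the member that rose: 10.06, 10.22, 9.97 and 9.85 in overexpression cultures, against 9.15, 9.002, 8.58 and 8.32 in nontargeting cultures, a difference of 1.26 ± 0.17 (adjusted p = 0.000117).

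Jun, the transcript of the protein that PRR7 is described to stabilise, was higher. It read 11.86, 12.21, 12.35 and 12.21 in overexpression cultures, against 10.999, 10.86, 11.22 and 10.93 in nontargeting cultures. The groups did not overlap, and the difference was 1.16 ± 0.27, or 2.23-fold (adjusted p = 0.00681). Cultures without virus, on the overexpression slide, covered 11.90 to 12.61, and knockdown cultures, on the nontargeting slide, covered 10.49 to 11.17. Within slides Jun gave -0.16 for overexpression minus no virus (adjusted p = 0.9999) and -0.17 for knockdown minus nontargeting (adjusted p = 0.73). The call was lost without the overexpression array of replicates 3 and 4 (1.04, adjusted p = 0.0715) and with Cy3 samples alone (1.00, adjusted p = 0.0662). The arrays read transcripts, so the amount or stability of c-Jun protein was not measured.

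Other AP-1 factors moved in both directions, with 4 of 15 measured higher (26.7%, against 10.5% of all genes) and 3 lower (20%, against 12.3%). Junb, which dampens c-Jun activity in several settings, read 9.37, 9.07, 9.32 and 9.0 in overexpression cultures, against 11.15, 11.13, 11.14 and 10.92 in nontargeting cultures. It fell by 1.89 ± 0.14 (adjusted p = 5.33e-07) with no overlap, beside -0.46 for overexpression minus no virus and -2.33 for knockdown minus nontargeting. Fosl1 fell by 0.89 ± 0.15. Atf3, a stress-induced partner of c-Jun, read 11.96, 12.15, 12.53 and 11.97 in overexpression cultures, against 10.60, 10.69, 10.35 and 10.66 in nontargeting cultures, a rise of 1.58 ± 0.28 (adjusted p = 0.00136). Knockdown minus nontargeting was -0.06 for Atf3. The large Maf factor Maf rose by 1.47 ± 0.14, with 0.71 in knockdown minus nontargeting.

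Genes of the JNK pathway and the ubiquitin ligases of c-Jun gave 6 rises (23.1%, against 10.5% of all genes) and 4 falls (15.4%, against 12.3%) among 26 measured, with a median of 0.13 that covered -0.03 to 0.42 over other processing settings. After Dusp16, the smallest p belonged to Csk, a kinase that inhibits Src-family kinases, which fell by 0.67 ± 0.13 on its brightest probe and was 0.20 on another that did not pass. The cullins Cul1 and Cul4a, scaffolds of ubiquitin ligases, rose by 0.70 ± 0.15 and 0.52 ± 0.13, and both calls were lost when 1 overexpression array was left out. Genes listed as c-Jun or AP-1 targets gave 5 rises (18.5%) and 4 falls (14.8%) among 27, with a median of 0.12 that covered -0.15 to 0.41 over those settings. Plaur, the urokinase receptor, was not well above background on any nontargeting array, and rose at least 1.53-fold, with means of 7.78 in overexpression and 7.10 in nontargeting cultures. Targets of SRF and YAP gave 6 rises (26.1%) and 5 falls (21.7%) among 23. The matricellular gene Ccn1 read 7.74, 7.78, 7.57 and 7.54 in overexpression cultures, against 10.93, 10.74, 10.11 and 9.97 in nontargeting cultures, 6.87-fold lower with no overlap. Crim1, a transmembrane antagonist of BMPs, fell by 1.31 ± 0.18, while Tagln, a smooth-muscle type actin-binding protein, rose by 1.23 ± 0.29.

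The integrated stress response, in which phosphorylation of eIF2 raises ATF4 and its targets, gave 6 rises and 0 falls among 28 measured genes (21.4% higher, against 10.5% of all genes), with a median of 0.34. Ddit3, the proapoptotic factor CHOP, read 12.75, 12.53, 12.81 and 12.24 in overexpression cultures, against 11.06, 10.82, 11.09 and 10.93 in nontargeting cultures. The groups did not overlap, and the rise was 1.61 ± 0.16 (adjusted p = 8e-06). Ddit3 covered 12.69 to 12.95 in cultures without virus and 10.51 to 10.98 in knockdown cultures. Trib3, a pseudokinase induced by CHOP, rose by 1.01 ± 0.18 and Atf5 by 1.34 ± 0.23. Shmt2, Psat1 and Phgdh, enzymes of serine and one-carbon metabolism, rose by 0.86 ± 0.22, 0.61 ± 0.17 and 0.74 ± 0.23, and each of these calls was lost in 2 of the 4 fits that left out an array. The Phgdh call was also lost in 4 of the 8 fits without 1 sample (adjusted p = 0.0515 to 0.0596). In knockdown minus nontargeting the list gave 1 rise and 7 falls, where 10.5% of all genes were higher and 11% lower. Its median was -0.18 there and -0.15 in overexpression minus no virus. The mean deviation of the list lay at 0.01 to 0.29 in overexpression and 0.30 to 0.41 without virus, against -0.28 to -0.09 in nontargeting and -0.49 to -0.31 in knockdown samples.

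Other stress lists were mixed, and their shares are read against 10.5% of all genes higher and 12.3% lower. ER chaperones and genes of the unfolded protein response gave 2 rises and 2 falls among 20 (10% each). The ER stress sensor Eif2ak3 read 10.29, 10.29, 10.34 and 10.07 in overexpression cultures, against 8.53, 8.81, 9.44 and 9.05 in nontargeting cultures, a rise of 1.29 ± 0.22 (adjusted p = 0.000729). The disulfide isomerase gene Pdia3 rose by 1.41 ± 0.28. Heat shock genes gave 2 rises (12.5%) and 1 fall (6.25%) among 16: the small heat shock gene Hspb1 fell by 1.96 ± 0.32, while Hspb8 and Cryab rose by 1.05 ± 0.20 and 1.12 ± 0.26, the Cryab call being lost when an array was left out. NRF2 targets gave 1 rise (7.69%) and 2 falls (15.4%) among 13, led by glutathione reductase, Gsr, at -0.60 ± 0.16, whose call was lost when either overexpression array was left out. Targets of p53 gave 3 rises (15.8%) and 1 fall (5.26%) among 19. The RNA-binding protein gene Zmat3 rose by 2.09 ± 0.21, with 2 nontargeting values, and the kinase gene Plk3 fell by 1.15 ± 0.17, its other probe at -0.24 not passing.

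Genes of apoptosis gave 5 rises (23.8%, against 10.5% of all genes) and 1 fall (4.76%, against 12.3%) among 21, with a median of 0.21. Over the other processing settings their rises numbered 0 to 7, where 254 to 4045 of all genes rose. Diablo, whose product antagonises inhibitors of apoptosis, read 13.10, 13.28, 13.00 and 12.96 in overexpression cultures, against 12.11, 12.07, 12.14 and 12.19 in nontargeting cultures. That is a rise of 0.96 ± 0.11 (adjusted p = 2.43e-05) without overlap, beside 1.32 in knockdown minus nontargeting and -0.11 in overexpression minus no virus. Bcl2l2 rose by 0.50 ± 0.09 on its brightest probe, but another probe fell by 0.44 (adjusted p = 0.00587). Bcl2l1, which encodes the antiapoptotic protein BCL-XL, rose by 1.14 ± 0.21. Further Bcl2l1 probes gave 0.73, which passed, and 0.37, which did not. Interferon-stimulated genes gave 4 rises (18.2%) and 0 falls among 22, led by B2m, the light chain of MHC class I, at 1.62 ± 0.33, with 1 other probe passing at 1.66 and another at 0.82 not passing. Of the other 3 that passed, Ifit2 lost its call in 6 of the 8 fits without 1 sample and in 4 of the 4 without 1 array, Stat2 in 2 and Rsad2 in 1 of the 4 without 1 array. Over the other settings the rises of this list numbered 0 to 8, beside the same 254 to 4045 of all genes. Inflammation genes gave 2 rises (16.7%) and 3 falls (25%) among 12, led after Ptgs2 by the iron-binding lipocalin Lcn2 at 1.23 ± 0.19.

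**Figure D3:**
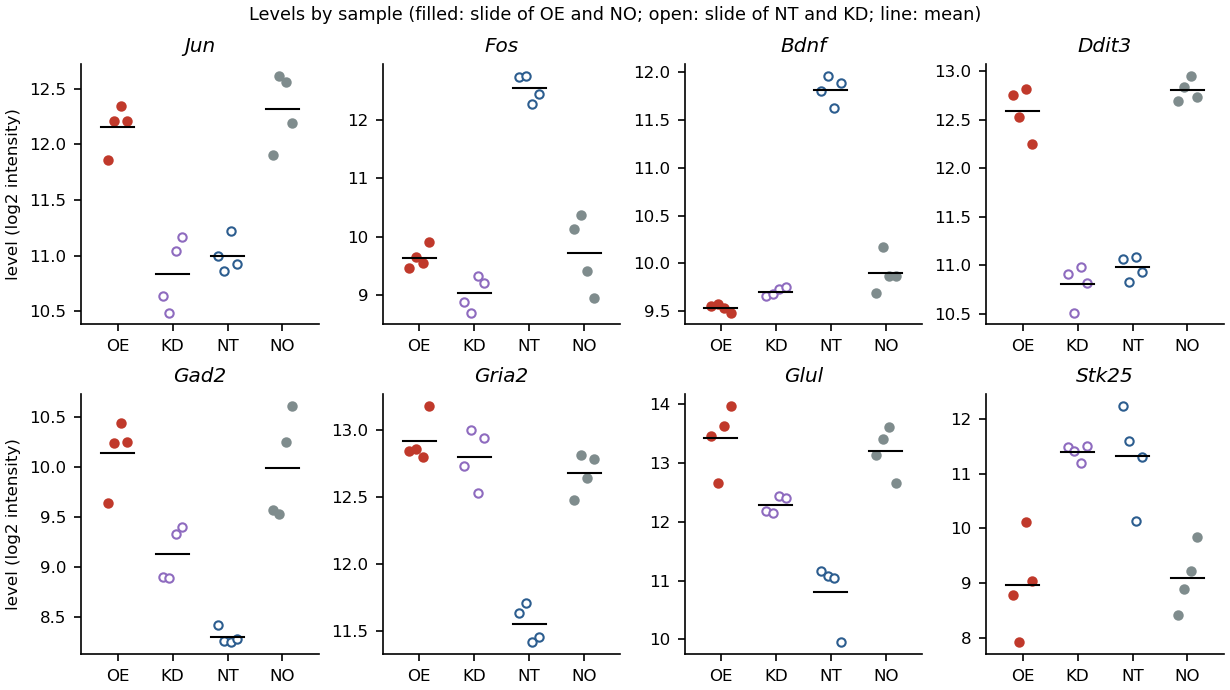
Log2 intensity (vertical axis) of Jun, Fos, Bdnf, Ddit3, Gad2, Gria2, Glul and Stk25 in each sample of the overexpression, knockdown, nontargeting and no-virus groups, with filled points for slide 2 and open points for slide 1. Fos and Bdnf are high in the nontargeting samples alone among the 4 groups, whereas Jun and Ddit3 are high in both groups of slide 2, and Stk25 is low in both.

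Genes that mark inhibitory interneurons were the cell-type list with the most rises. Of 15 measured markers, 9 rose and 0 fell, or 60% higher against 10.5% of all genes, with a median of 0.67. This list too was chosen with earlier results of these data known. Gad2, a GABA-synthesising enzyme, read 9.64, 10.24, 10.44 and 10.25 in overexpression cultures, against 8.42, 8.27, 8.25 and 8.28 in nontargeting cultures, 1.84 ± 0.27 higher without overlap (adjusted p = 0.000244). In bulk RNA a change in the number of cells of a type and a change in RNA per cell cannot be told apart.

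The vesicular GABA transporter Slc32a1 rose by 1.59 ± 0.21 and the homeobox factor Dlx5 by 1.45 ± 0.15. Pvalb was not well above background on any nontargeting array and rose at least 1.45-fold, with means of 7.63 in overexpression and 6.96 in nontargeting cultures. The neuropeptide Sst, the extracellular glycoprotein Reln and the enzyme Gad1 rose by 1.28 ± 0.27, 0.58 ± 0.15 and 1.59 ± 0.42. Vip (0.37), Calb1 (-0.27), Calb2 (0.16), Npy (0.12), Dlx1 (0.11) and Dlx2 (-0.02) did not pass. In knockdown minus nontargeting 7 members rose and 1 fell, where 10.5% of all genes were higher and 11% lower. The median was 0.45 there and -0.09 in overexpression minus no virus. The mean deviation of the list was 0.23 to 0.48 in overexpression, -0.26 to -0.14 in knockdown, 0.20 to 0.56 without virus and -0.70 to -0.44 in nontargeting samples.

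Excitatory markers gave 0 rises and 5 falls among 13 (38.5% lower, against 12.3% of all genes), with a median of -0.23. Neurod1, a basic helix-loop-helix factor of young excitatory neurons, read 10.73, 10.62, 10.37 and 10.30 in overexpression cultures, against 12.03, 11.93, 11.07 and 10.86 in nontargeting cultures, and it fell by 0.97 ± 0.22. Tbr1 was not well above background on any overexpression array and fell at least 1.41-fold, while its other probe at -0.11 did not pass. The calls of Neurod1, Tbr1 and Wfs1 (-0.70) were each lost when 1 array was left out, and that of Neurod6 (-0.51) also without 1 sample. The list's median also turned sign under other processing, covering -0.52 to 0.02.

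General neuronal markers gave 4 rises (28.6%, against 10.5% of all genes) and 3 falls (21.4%, against 12.3%) among 14, with Dcx, a microtubule protein of immature neurons, at 1.11 ± 0.20 and the neurofilament gene Nefl at -0.59 ± 0.17. The Nefl call was lost when 1 array was left out. The neuronal markers Tubb3, Map2, Snap25 and Stmn2 and the astrocyte marker Gfap were well above background in all 8 samples. Their means were 15.74, 11.11, 15.35, 16.16 and 12.86 in overexpression and 14.82, 11.79, 15.86, 15.91 and 12.85 in nontargeting cultures. They cannot tell the labelled cultures from the adult dentate gyrus of the description label, which also holds neurons and astrocytes. Rbfox3 was not among the genes tested.

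Astrocyte markers gave 4 rises and 0 falls among 12 (33.3% higher, against 10.5% of all genes). The list was not uniform: 8 of the 12 had a positive difference, the median was 0.09, and over the other processing settings it turned sign, covering -0.06 to 0.38. Glul, the glutamine synthetase of astrocytes, read 13.46, 12.66, 13.64 and 13.97 in overexpression cultures, against 11.17, 11.08, 11.04 and 9.95 in nontargeting cultures, 6.16-fold higher without overlap (2.62 ± 0.42, adjusted p = 0.000434). The glutamate transporter Slc1a3 rose by 1.25 ± 0.20 and the calcium-binding protein gene S100b by 1.58 ± 0.29. Aqp4, the water channel, rose by 1.21 ± 0.39, but its other 3 probes (0.90, 0.95 and 1.01) did not pass and its call was lost in 5 of the 8 fits without 1 sample. Oligodendrocyte-lineage markers gave 2 rises (20%) and 0 falls among 10. Microglial markers gave 2 rises (22.2%) and 0 falls among 9, led by Cd68 at 0.48 ± 0.13, and Aif1, Cx3cr1 and Itgam were not among the genes tested. Markers of vascular cells gave 0 rises and 0 falls among 4, and those of fibroblasts and meninges 1 rise, Thy1 at 0.87 ± 0.15, and 1 fall, Col1a1 at -0.30 ± 0.10, among 8 (12.5% each). The calls of Cd68 and Col1a1 were lost when 1 array was left out, and that of Col1a1 also without 1 sample, in 4 of 8 fits. The mean deviation of the astrocyte list was 0.17 to 0.52 in overexpression, -0.11 to -0.03 in knockdown, -0.40 to 0.29 without virus and -0.57 to -0.18 in nontargeting samples. That of the oligodendrocyte list was -0.06 to 0.10 in overexpression, 0.03 to 0.13 in knockdown, 0.02 to 0.19 without virus and -0.33 to -0.17 in nontargeting samples. The part of these shifts in cell markers in the differences of other genes was not tested.

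Ionotropic and metabotropic glutamate receptors gave 8 rises (30.8%, against 10.5% of all genes) and 4 falls (15.4%, against 12.3%) among 26, with a median of 0.18. Gria2, the AMPA receptor subunit that makes the channel impermeable to calcium, read 12.84, 12.86, 12.80 and 13.18 in overexpression cultures, against 11.63, 11.71, 11.41 and 11.45 in nontargeting cultures. The groups did not overlap, with a difference of 1.37 ± 0.14 (adjusted p = 1.06e-05), beside 0.24 in overexpression minus no virus and 1.25 in knockdown minus nontargeting. The other AMPA receptor subunits Gria1, Gria3 and Gria4 rose by 1.16 ± 0.18, 0.97 ± 0.14 and 0.56 ± 0.13, so all 4 passed on their brightest probes, although another probe of Gria4, at 0.13, did not. The kainate receptor subunits Grik4 and Grik1 rose by 1.2 ± 0.21 and 0.63 ± 0.12.

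Among NMDA receptor subunits, Grin3a read 8.24, 8.12, 8.40 and 8.32 in overexpression cultures, against 7.54, 7.42, 7.14 and 7.26 in nontargeting cultures, and rose by 0.93 ± 0.13. Grin2c fell by 0.98 ± 0.28, and Grin1, the obligate subunit, was at -0.19 ± 0.13 without passing. Grin2a (0.28) and Grin2b (0.19) did not pass. Of metabotropic receptors, Grm5 rose by 1.28 ± 0.20, and Grm8, Grm3 and Grm6 fell by 0.68 ± 0.11, 0.73 ± 0.20 and 0.45 ± 0.13, with another probe of Grm3 at -0.23 not passing. In knockdown minus nontargeting Grm8 was 0.39.

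Postsynaptic density genes gave 5 rises (17.2%, against 10.5% of all genes) and 2 falls (6.9%, against 12.3%) among 29. Shank3, a master scaffold of the density, read 12.97, 12.83, 12.62 and 12.56 in overexpression cultures, against 11.99, 12.03, 11.61 and 11.72 in nontargeting cultures, a rise of 0.91 ± 0.13 (adjusted p = 0.000237). Cacng3, an auxiliary subunit of AMPA receptors, rose by 0.76 ± 0.14. Synaptic vesicle and active-zone genes gave 4 rises and 4 falls among 33 (12.1% each), led after Slc32a1 by the presynaptic adhesion molecule gene Nrxn3 at 0.85 ± 0.14. GABA-A receptor genes gave 2 rises (15.4%) and 3 falls (23.1%) among 13: Gabra4 read 8.70, 8.63, 8.58 and 8.92 in overexpression cultures, against 9.52, 9.50, 9.87 and 9.74 in nontargeting cultures, and it fell by 0.95 ± 0.14, and Gabrb1 rose by 0.80 ± 0.16.

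Potassium channel genes gave 7 rises and 7 falls among 40 (17.5% each, against 10.5% of all genes higher and 12.3% lower). The leak channel gene Kcnk1 rose by 1.34 ± 0.16, whereas Kcna4, an A-type channel, fell by 1.22 ± 0.21 and Kcnip4, an auxiliary subunit of such channels, by 1.57 ± 0.31. The delayed-rectifier gene Kcna6 rose by 1.21 ± 0.17, although its other probe at 0.15 did not pass. Sodium, calcium and HCN channel genes gave 3 rises and 3 falls among 26 (11.5% each). Scn3b, a sodium channel beta subunit, read 15.01, 15.08, 14.92 and 14.84 in overexpression cultures, against 13.60, 13.59, 13.68 and 13.63 in nontargeting cultures, 1.33 ± 0.12 higher without overlap (adjusted p = 2.35e-06). The calcium channel subunits Cacnb2 and Cacna1c fell by 1.22 ± 0.13 and 0.81 ± 0.13, with the other probe of Cacnb2 at -0.30 not passing. That other probe was dim, with means of 7.33 in overexpression and 7.63 in nontargeting cultures.

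Neuropeptide and granin genes gave 4 rises (15.4%, against 10.5% of all genes) and 6 falls (23.1%, against 12.3%) among 26. Penk, the enkephalin precursor, read 9.33, 9.49, 8.94 and 9.44 in overexpression cultures, against 11.21, 11.23, 10.14 and 10.19 in nontargeting cultures, and it fell by 1.39 ± 0.27, with its other probe at -0.24 not passing. Chgb, a granin of dense-core vesicles, fell by 0.71 ± 0.14. Neurotrophins and other secreted factors gave 7 rises (26.9%) and 6 falls (23.1%) among 26. Igfbp5, a secreted protein that binds insulin-like growth factors, read 11.97, 12.08, 11.61 and 11.62 in overexpression cultures, against 9.11, 9.24, 9.46 and 8.64 in nontargeting cultures. The groups did not overlap, as the choice of leading genes requires, and the rise was 2.71 ± 0.26, or 6.52-fold (adjusted p = 5.64e-06). Its relative Igfbp2 rose by 1.13 ± 0.14, and Igfbp5 was 0.73 in knockdown minus nontargeting without passing (adjusted p = 0.0557).

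Igfbp5 and Glul were among the 15 largest rises of named genes, and Nxph1 led them. Nxph1 encodes neurexophilin, a secreted ligand of alpha-neurexins found in inhibitory neurons. It read 12.09, 12.32, 12.32 and 12.59 in overexpression cultures, against 9.81, 9.79, 9.39 and 9.03 in nontargeting cultures, with no overlap. The rise was 2.83 ± 0.19, or 7.09-fold (adjusted p = 3.54e-07), from a probe at chromosome 4, positions 34339011 to 34339070 of rn4. Knockdown minus nontargeting was 1.65 and overexpression minus no virus 0.17 for Nxph1.

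The other 12 rises had differences of 2.07 to 2.56. In these 12, knockdown minus nontargeting ran from 0.87 for Map1lc3b to 2.74 for Fabp3, with Rab4b at 2.69. Overexpression minus no virus ran from -0.33 for Fabp3 to 0.68 for Caln1, and none passed. Rab4b, a GTPase of endosomal recycling, read 12.12, 11.82, 12.004 and 11.76 in overexpression cultures, against 9.49, 9.53, 9.49 and 9.49 in nontargeting cultures, 2.42 ± 0.15 higher. Slc13a3, a dicarboxylate transporter, rose by 2.25 ± 0.22, and Fabp3, a fatty-acid binding protein, by 2.16 ± 0.16. Pea15, an ERK-binding phosphoprotein abundant in astrocytes, rose by 2.19 ± 0.28, and Caln1, a neuronal calcium-binding protein, by 2.14 ± 0.20. Jam2, a junctional adhesion molecule, rose by 2.56 ± 0.37 with values in 2 overexpression samples, and Map1lc3b, a protein of autophagosomes, by 2.15 ± 0.24 with values in 2 nontargeting samples. Ywhab, a 14-3-3 adaptor, rose by 2.11 ± 0.13 with 3 values a group, and Btbd1 by 2.07 ± 0.12 with 3 overexpression values. Ifi27l2b rose by 2.55 ± 0.25 on its brightest probe, and its other probe at 0.15 did not pass (adjusted p = 0.43).

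Of the 15 largest falls, 7 have been described above as activity-regulated genes, and Ccn1 and Hspb1 in other lists. Of the remaining 6, Mesp1, a helix-loop-helix factor known from mesoderm, read 8.29, 8.63, 8.39 and 8.63 in overexpression cultures, against 11.20, 11.40, 11.31 and 11.60 in nontargeting cultures, and it fell by 2.90 ± 0.18. The membrane-anchored carbonic anhydrase Car4 fell by 2.45 ± 0.17, Khdrbs2, an RNA-binding splicing regulator, by 2.27 ± 0.17, and the forkhead factor Foxe1 by 2.05 ± 0.32. Knockdown minus nontargeting gave -2.88, -1.58, -1.87 and -1.67 for Mesp1, Car4, Khdrbs2 and Foxe1.

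Stk25 and Ddn did not pass in knockdown minus nontargeting. Stk25, a kinase of the Golgi that affects neuronal polarity, read 8.79, 7.91, 10.11 and 9.04 in overexpression cultures, against 12.24, 11.60, 10.14 and 11.31 in nontargeting cultures. The highest overexpression and lowest nontargeting samples nearly touched, and it fell by 2.36 ± 0.63 (adjusted p = 0.014). Stk25 covered 11.19 to 11.51 in knockdown cultures and 8.42 to 9.85 without virus, with knockdown minus nontargeting at 0.08 and overexpression minus no virus at -0.13. The call was lost without the overexpression array of replicates 1 and 2 (adjusted p = 0.129), without the nontargeting array of replicates 1 and 2 (adjusted p = 0.0766), and with the 8 samples of the comparison fitted alone (adjusted p = 0.0569). Ddn, a postsynaptic protein whose transcript is carried into dendrites, read 10.59, 9.28, 10.83 and 9.75 in overexpression cultures, against 12.38, 12.35, 11.83 and 12.79 in nontargeting cultures. It fell by 2.23 ± 0.52 (adjusted p = 0.00632), a call lost in 2 of 32 other settings. Its knockdown minus nontargeting was -0.66 without passing (adjusted p = 0.417).

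**Figure D4:**
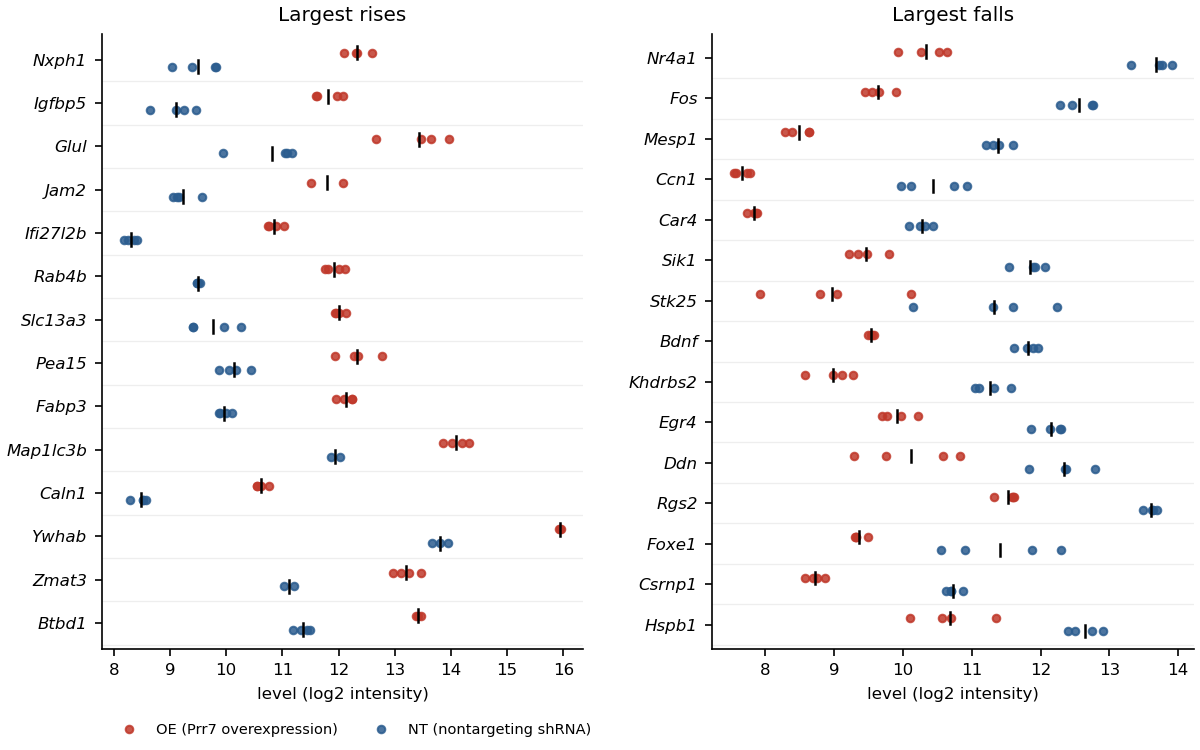
Log2 intensity (horizontal axis) of each sample for the leading rises and falls among named genes, with overexpression samples drawn above nontargeting samples in each row. The samples of the groups do not overlap in any row, as the choice of genes requires, and differences run from -3.34 for Nr4a1 to 2.83 for Nxph1.

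Genes of replication and the cell cycle gave 6 rises (14.6%) and 4 falls (9.76%) among 41, shares close to the 10.5% and 12.3% of all genes. Knockdown minus nontargeting gave 24 rises and 1 fall among the same genes, where 10.5% of all genes were higher and 11% lower. Prim1, the catalytic subunit of primase, read 11.03, 11.01, 11.28 and 11.10 in overexpression cultures, against 12.48, 12.35, 12.69 and 12.69 in nontargeting cultures, and it fell by 1.45 ± 0.12 (adjusted p = 6.28e-06). Timeless, a replication fork protein, fell by 0.82 ± 0.15, while it was 1.87 in knockdown minus nontargeting. Mcm3, a subunit of the replicative helicase, rose by 1.05 ± 0.23, beside 3.1 in knockdown minus nontargeting, and its other probe at 0.33 did not pass. Rfc3, of the clamp loader, fell by 0.94 ± 0.15.

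Among housekeeping complexes, proteasome genes gave 1 rise (3.33%, against 10.5% of all genes) and 5 falls (16.7%, against 12.3%) among 30, with Psmd7 rising by 0.98 ± 0.11 and Psmc4 and Psmc6, ATPases of the base, falling by 0.83 ± 0.12 and 0.72 ± 0.12. The other probe of Psmc4 was at -0.07. Respiratory chain genes gave 1 rise (3.03%) and 6 falls (18.2%) among 33 with a median of -0.11, led by Cox5a of complex IV at -0.49 ± 0.12, and the calls of the 6 members with the smallest p were each lost when 1 array was left out. Genes of the vacuolar proton pump gave 4 rises (23.5%) and 0 falls among 17, led by Atp6v0a1 at 0.74 ± 0.18, with the same loss of all 4 calls. Genes of cholesterol synthesis and uptake gave 0 rises and 1 fall (4.35%) among 23, Acat2 at -0.71 ± 0.24, which passed in 3 of the 8 fits without 1 sample.

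**Figure D5:**
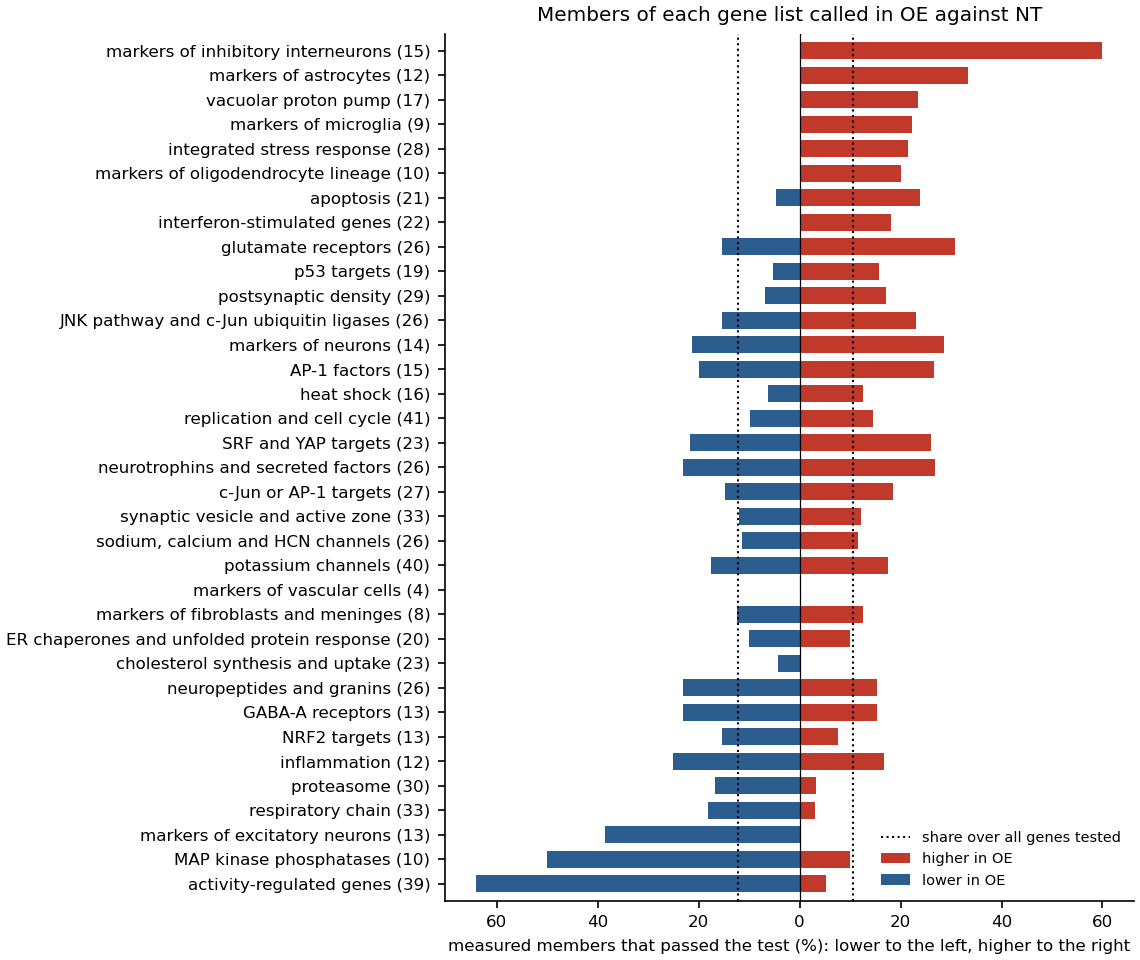
Percent of measured genes of each list that were higher or lower in overexpression than in nontargeting cultures (horizontal axis, adjusted p below 0.05), with dotted lines at the shares over all genes of 10.5% higher and 12.3% lower. Activity-regulated genes reach 64.1% lower and interneuron markers 60% higher. The lists were chosen with earlier results of these data known.

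The balance of rises and falls depended on the scaling. Of the 5218 calls, 45.9% were rises. With loess within arrays and no scaling between arrays, 94.1% of the calls were rises, and the median difference of all genes moved to 0.36. With the authors' deposited values, each centred on its sample's median, 30.6% were rises and the median was -0.21. With a required difference of over 1.5-fold, 71.1% of 357 calls were rises. Over all settings tried, the median of the activity-regulated genes covered -1.25 to -0.61 with 13 to 27 members lower, the fewest being 13 with loess alone and 14 with the 1.5-fold requirement, and that of the interneuron markers covered 0.62 to 1.28 with 5 to 9 members higher. Over the same settings, rises numbered 1 to 14 for the integrated stress response and 1 to 10 for glutamate receptors. Over all genes, 254 to 4045 were higher and 103 to 5094 lower in these settings. The ranges of the lists therefore also carry the total number of calls.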

How the data were processed

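Per the file headers, the deposited scanner files hold the intensity of each spot in the green (Cy3) and red (Cy5) channels, extracted by the authors with Agilent Feature Extraction 10.7.3.1 per the submitters' processing notes, and the deposited value table holds log2 values, which equal log2 of median signal minus median background, centred on each sample's median. Each sample was read in its own dye. Mean signals were corrected with normexp (offset 50), normalised by loess within arrays (control spots weight 0) and Aquantile between arrays (limma 3.58.1, R 4.3.3). A probe was kept if 4 or more of the 16 samples were well above background and if it had 12 or more values, 2 or more of them in each group, and outlier spots were set missing, so some genes have 2 or 3 values in a group. The brightest probe stood for a gene. The fit over all 16 samples had group and dye as terms and array as a random block (correlation 0.5688), with two-sided tests. Where a probe was not well above background on any array of a group, the fold is a lower bound, against the higher of that probe's own signal and the lowest signal well above background on each array.

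Of 41012 transcript probes, 21328 were given a current symbol and 19684 keep the array's name. Genes named are, among those with a symbol that passed and whose groups did not overlap, the 15 largest rises and 15 largest falls, then up to 6 members of each list with the smallest p, and Jun. Further members of the activity, phosphatase, glutamate receptor, interneuron and general marker lists were named after their values were seen. Some of these genes are not reported here. The comparison's members and all gene lists were chosen with earlier results of these data known. Samples with the same replicate number deviated together with correlations of 0.0804, 0.0979, 0.0155 and -0.0107, so the numbers were not taken to pair cultures. On simulated data for this comparison, with 22909 genes, 50% of genes changed 1.5-fold and 90% of those changed 2-fold were recovered, with 10 false calls. Far fewer genes were changed in the simulation than passed in the data, so these rates need not hold for the data. The number of arrays limits the precision. Promoter sequences came from the RefSeq table for GRCr8, and the probe positions of rn4 from the file columns.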

Additional observations from a re-analysis of the deposited data

Results flagged for a closer look

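In 14 of 324 groups of 4 samples tested among the named genes, 1 sample stood apart from the others by more than Dixon's 95% critical value allows. Chance alone flags about 5% of groups.

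Among overexpression samples, Foxe1 in replicate 3 read 9.49 against 9.30 to 9.32 in the others, Gria2 in replicate 4 read 13.18 against 12.80 to 12.86, and Psat1 in replicate 4 read 8.04 against 7.67 to 7.68. Low values were Gsr in replicate 4 at 7.24 against 7.47 to 7.48, Lcn2 in replicate 1 at 8.62 against 8.98 to 9.04, Rgs2 in replicate 1 at 11.32 against 11.59 to 11.62, and Wfs1 in replicate 1 at 9.97 against 10.12 to 10.14. All of these groups stayed apart from their nontargeting groups.

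Among nontargeting samples, Glul in replicate 4 had the widest gap, at 9.95 against 11.04 to 11.17 in the others. Pdia3 in replicate 3 read 11.73 against 10.78 to 10.85, close to its lowest overexpression value of 11.80. Smaller gaps were Cox4i1 in replicate 2 at 14.30 against 14.45 to 14.48, Csk in replicate 4 at 14.79 against 14.62 to 14.64, Junb in replicate 4 at 10.92 against 11.13 to 11.15, Rab4b in replicate 2 at 9.53 against 9.49, and Thy1 in replicate 4 at 8.71 against 8.93 to 8.97.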

How the results depend on the processing

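The 5218 calls (2394 higher, 2824 lower) moved with several settings, the furthest with a required difference of over 1.5-fold, which left 357 (254 higher, 103 lower). With no array block 9139 genes passed (4045 higher, 5094 lower), and with each array as 1 value 3562 passed (1828 lower). Leaving out the overexpression array of replicates 1 and 2 gave 3035 (1407 higher, 1628 lower), and that of replicates 3 and 4 gave 3096 (1547 higher, 1549 lower). The nontargeting arrays left out gave 5884 and 4806. Scaling to the 75th percentile gave 3262 (1248 higher), loess alone 2111 (124 lower), and Cy3 samples alone 2017 (1076 higher, 941 lower). The cause of these changes was not tested. Without 1 sample the count was 4335 to 5538. With the replicate block it was 6149, of which 5202 were shared with the main calls in the same direction.

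The 29 leading genes reported kept direction and call in 917 of 925 results over the settings, and 8 lost the call. Stk25 lost it in 6 settings and Ddn in 2. The leading genes were chosen for large differences in these same samples, so this is no independent test of them. Of all 171 genes checked, 45 kept their call in every setting that tested them, 22 lost it in at least 1 fit without 1 sample, and 69 in at least 1 fit without 1 array. Without the overexpression array of replicates 1 and 2, 51 lost it, and without that of replicates 3 and 4, 45. A sign changed in 3 results, all with loess alone: Col1a1 (0.0824), Cxcl1 (0.0761) and Rims2 (0.0147). Vector, slide and group cannot be told apart in any of these settings. Calls were fewest in the dimmest quartile of genes, and the part of signal over background in that was not tested.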

Other observations

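The gene with the largest rise over all genes tested has no symbol and so is not among the leading genes. Under the array's own name, RGD1311993, it was 3.85 higher in overexpression than in nontargeting cultures. Past the 15 leading rises came the neuronal glutamate transporter Slc1a1 (2.03) and Dpy30 (1.99), a subunit of histone methyltransferase complexes. Past the 15 leading falls came the epithelial membrane protein gene Emp1 (-1.95) and Inhba (-1.94).

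For genes called with more than 1 probe, 1317 further probes of 1046 genes were compared. Of these, 516 passed in the same direction, 611 had the same sign without passing, 172 had the opposite sign without passing and 18 passed in the opposite direction, as those of Homer1 and Bcl2l2 did.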
